A study of Mus musculus with 12 samples.

Results

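The binding landscape of BRWD1 was described from the 2 BRWD1 peak lists of mouse small pre-B cells, using every listed peak on chromosomes 1 to 19 and X. Replicate 1 held 5813 such peaks and replicate 2 held 9964, together 15777 of the 53086 peaks in the 6 ChIP-seq lists of the series. The cells were flow-sorted from the bone marrow of C57BL/6 mice as lineage-negative, B220+, CD43-, IgM- cells of small size, and chromatin was precipitated with the same lot of an antibody to BRWD1 in both biological replicates. Lists for acetylated lysine 9 of histone H3 (H3K9Ac) and for H3S10pK14Ac, a double mark that joins phosphorylated serine 10 to acetylated lysine 14 of the same histone, serve as comparisons. Each has 2 replicates from cells sorted in the same way from the same strain. The labels of the ChIP-seq samples do not state the genotype, age or sex of the mice, or whether animals were pooled. Peak lists hold no expression values, so neither the cell type nor the specificity of the antibody could be checked.

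Small pre-B cells have left the cell cycle after a successful heavy chain rearrangement and rearrange their light chain genes, first of all immunoglobulin kappa (Igk). BRWD1 combines WD repeats with bromodomains, modules that recognise acetylated lysines on histones, and it is known from this stage of B cell development as a reader of histone marks that is required for Igk recombination. A ChIP-seq peak marks a stretch of DNA that was recovered more often with the antibody than the peak caller expected.

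The score of a peak is the significance deposited by the authors (−log10), which ranks peaks within a list. The same threshold of 10 and the same bins were used in both lists, although an equal score need not mean equal enrichment in libraries of unknown depth. Most listed peaks were weak. In replicate 1, 5365 peaks scored below 10 and 448 scored 10 or more, and in replicate 2 the numbers were 9570 and 394. A score of 5.47 was given to 2012 peaks of replicate 1 (34.6%), and a score of 5.70 to 3819 peaks of replicate 2 (38.3%). Peak names were numbered up to 110440 and 145512, and the lists hold 5.27% and 6.86% of those numbers. No read counts are given, so the depth behind a peak is unknown.

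Strong BRWD1 peaks were mostly found in both lists, and weak ones mostly in a single list. Of the peaks that scored 10 or more, 355 of 448 in replicate 1 overlapped a peak of replicate 2 by at least 1 bp (79.2%, 95% Wilson interval 75.2 to 82.7), and 283 of 394 in replicate 2 overlapped a peak of replicate 1 (71.8%, 67.2 to 76.0). Of the peaks below 10 the shares were 329 of 5365 (6.13%, 5.52 to 6.81) and 377 of 9570 (3.94%, 3.57 to 4.35). Over both lists, the share was 75.5% ± 5.24 (SD, n = 2 lists) in the upper score band and 5.04% ± 1.55 in the lower. For whole lists the shares were 11.8% and 6.62%, and this is the background for the counts by score. Within the lists the bands differed by 73.1 and 67.9 percentage points, and an exact two-sided paired permutation test over the 2 lists gave p = 0.5, the smallest it can give. The shares of the 2 lists count the same overlaps from either side, 684 peaks of replicate 1 and 660 of replicate 2. The lists are therefore not independent here, and no conclusion is drawn from the SD or the test. The Wilson intervals cover counting error of peaks only.

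The share found in both lists was higher in higher score bins on both sides of the threshold of 10, though not at every step. Among replicate 1 peaks it was 2.39% at scores of 5 to 6, 15.5% at 6 to 7, 50% at 9 to 10, 67.4% at 10 to 12, 78.9% at 15 to 20 and 91.0% at 20 to 30. Replicate 2 peaks gave 1.71%, 3.60%, 41.9%, 44.4%, 86.7% and 94.2% in the same bins. In replicate 1 the bins of 7 to 8 and 8 to 9 were level (35.2% and 35.1%), as were those of 10 to 12 and 12 to 15 (67.4% and 66.4%). The lists differed most at scores of 7 to 8 and of 10 to 12, where replicate 2 peaks were found again less often. At 7 to 8 the shares were 35.2% (23.8 to 48.5) for replicate 1 and 9.62% (7.94 to 11.6) for replicate 2, and at 10 to 12 they were 67.4% (57.1 to 76.3) and 44.4% (35.8 to 53.5). At scores of 30 to 50, all 54 peaks of replicate 1 and all 39 of replicate 2 were found in the other list. From 50 upward this held for 21 of 21 and 14 of 15.

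**Figure D1:**
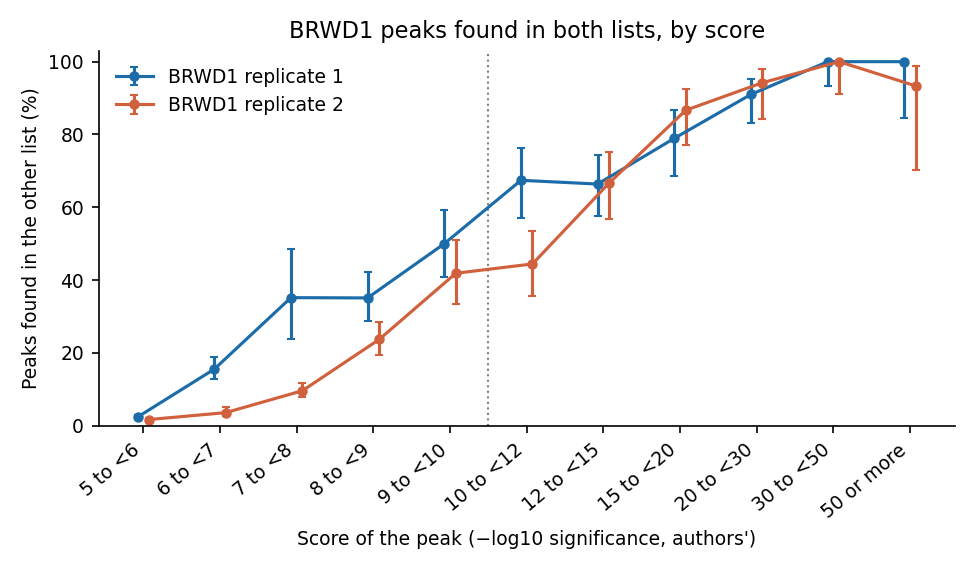
Share of BRWD1 peaks found in the other list (y axis, percent) by the score of the peak (x axis, bins of the authors' −log10 significance), for replicate 1 and replicate 2; error bars are 95% Wilson intervals and the dotted line marks a score of 10. In both lists the share runs from 2.39% and 1.71% in the lowest bin to 91.0% and 94.2% at scores of 20 to 30.

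The peaks next to the threshold did not form a gap in the scores. Chromosome 18 was left out when these peaks were picked, while counts of peaks with an equal score include it. The lowest score at or above 10 was 10.11 in replicate 1, held by a single peak at chromosome 1, 143316826 to 143316897 (72 bp), which was found in both lists. Just below it, 55 peaks shared a score of 9.99, and 24 of these were found in both lists. In replicate 2, 2 peaks scored 10.05, both found in replicate 1, among them chromosome 2, 135625880 to 135626067 (188 bp). The highest score below the threshold was 9.94, held by 2 peaks of which 0 were found in replicate 1, for example chromosome 16, 96281084 to 96281278 (195 bp).

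Overlapping peaks of the 2 lists mostly had midpoints close together. Each of the 684 shared replicate 1 peaks overlapped exactly 1 replicate 2 peak, whereas 21 of the 660 shared replicate 2 peaks spanned several replicate 1 peaks, at most 4. The replicate 1 peak lay wholly inside the replicate 2 peak in 586 of 684 pairs (85.7%). The midpoints were a median of 11.3 bp apart (quartiles 2.5 and 44.5 bp), and in 1 pair they were over 500 bp apart. Pairs were picked for overlap, and their median widths were 75 bp in replicate 1 and 252 bp in replicate 2. Overlap at such widths by itself keeps midpoints close and often places the narrow peak inside the wide one. Pairs that scored 10 or more in both lists had a median distance of 5.25 bp, and pairs below 10 in both had 18.8 bp.

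A peak that was strong in a list was often weak in the other. Of the 684 pairs, 220 scored 10 or more in both lists (32.2%), 135 in replicate 1 only (19.7%), 83 in replicate 2 only (12.1%) and 246 in neither (36.0%). Spearman's rho between the 2 scores was 0.53 over all pairs, a description across peaks, which are not independent replicates. It was 0.56 among pairs strong in both lists and 0.14 among pairs weak in both.

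**Figure D2:**
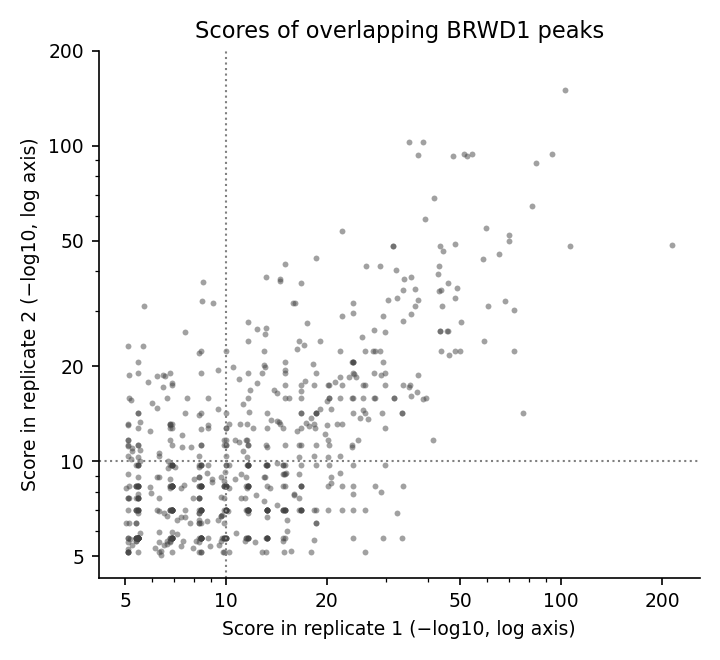
Score of the replicate 1 peak (x axis) against the score of the overlapping replicate 2 peak (y axis), both −log10 significance on log axes, for the 684 overlapping pairs; dotted lines mark scores of 10. Points above both lines are the 220 pairs strong in both lists, and weak pairs line up on few score values.

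Outside chromosome 18, the best shared region by mean rank lay on chromosome 4. There the replicate 1 peak at 124546439 to 124546741 (303 bp, score 102.4) sat inside the replicate 2 peak at 124546333 to 124546830 (498 bp, score 150.5). On chromosome 13 the 131 bp peak at 92813865 to 92813995 and the 307 bp peak at 92813776 to 92814082 had midpoints 1 bp apart, with scores of 84.0 and 88.4. On chromosome 12 the peaks at 47959244 to 47959347 and 47959158 to 47959437 had midpoints 2 bp apart, with scores of 81.9 and 64.3. The chromosome 17 pair, 39984423 to 39984840 and 39984171 to 39985240, scored 93.9 and 94.1 with midpoints 74 bp apart. As background, that place in mm9 holds a copy of the ribosomal RNA repeat, which draws high signal in many ChIP-seq libraries whatever the antibody, and its part in these scores was not tested. The fifth region, at Igk on chromosome 6, was the least alike in shape. There a 1117 bp peak of replicate 1 (70675735 to 70676851, score 214.6) met a 443 bp peak of replicate 2 (70675648 to 70676090, score 48.3) over 356 bp, with midpoints 424 bp apart. These positions are in the build mm9. No genome or gene annotation of that build was used here, so no sequence is shown and no peak is placed in an exon, intron or promoter. The names Igk and heavy chain region rest on the known places of these loci.

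Outside chromosome 18, the 3 most unequal shared pairs among those strong in a list were all strong in replicate 2. They were near the bottom of replicate 1. On chromosome 12, in the heavy chain region, a 1668 bp peak of replicate 2 (114662719 to 114664386, score 23.3, rank 80 of 9964) held a 167 bp peak of replicate 1 (114664118 to 114664284, score 5.10, rank 5563 of 5813). The others lay on chromosome 6, where replicate 1 peaks of score 5.10 at 140448946 to 140449116 and 15886068 to 15886130 met replicate 2 peaks of scores 13.1 and 13.0.

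Outside chromosome 18, the strongest BRWD1 peaks found in a single list were as a rule far from any peak of the other list, with an exception at Igk. The strongest of all was the replicate 2 peak at chromosome 6, 70672399 to 70674204 (1806 bp, score 71.97, rank 8), which ended 1530 bp before the highest-scored replicate 1 peak. It overlapped H3K9Ac in both replicates and H3S10pK14Ac in replicate 2. The next in replicate 2 were chromosome 12, 42708071 to 42708365 (score 24.1), which lay 452063 bp from the nearest replicate 1 peak, and chromosome 7, 100234701 to 100235191 (score 22.6), at 133226 bp. Both overlapped H3K9Ac in both replicates and H3S10pK14Ac in replicate 2. In replicate 1 the strongest were chromosome X, 46832771 to 46832853 (score 27.8), chromosome 1, 71024207 to 71024285 (score 27.3), and chromosome 13, 21974746 to 21974823 (score 24.0), at 40956, 13581 and 190884 bp from the nearest replicate 2 peak. All 3 overlapped H3K9Ac in replicate 1 and none in replicate 2. The chromosome 1 peak also overlapped a peak of the short H3S10pK14Ac replicate 1 list.

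Few of the peaks in a single list lay within 1 kb of a peak of the other list. Of the 93 such peaks of replicate 1 that scored 10 or more, 4 lay within 1 kb of a replicate 2 peak (4.30%, 1.69 to 10.5), and the median distance was 82.8 kb. For the 111 of replicate 2 the values were 5 (4.50%, 1.94 to 10.1) and 122 kb. Below 10, 73 of 5036 (1.45%) and 68 of 9193 (0.740%) lay within 1 kb.

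Peak width differed far more between the lists than between shared and single-list peaks. Strong shared peaks had a median width of 84 bp in replicate 1 (quartiles 74 and 111) and 267 bp in replicate 2 (252 and 328.5). Strong single-list peaks had medians of 80 bp (74 and 97) and 264 bp (247 and 346.5). The ratio of the medians was 1.03 ± 0.0273 (SD, n = 2 lists), and it was 0.975 without the 1% highest-scored peaks and 0.829 at a threshold of 20. At that threshold the lists went opposite ways, 1.12 in replicate 1 and 0.538 in replicate 2, with only 8 and 4 single-list peaks. Among weak peaks the lists went opposite ways: shared peaks had a median of 69 bp against 71 bp in replicate 1, and 245 bp against 192 bp in replicate 2. The mean ratio of 1.12 ± 0.215 therefore rests on replicate 2, and replicate 1 alone gave 0.972.

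Wide BRWD1 peaks were rare, and the strong ones among them were mostly found in both lists, as were strong peaks of any width. Replicate 1 had 5 peaks of 500 bp or more, all of score 10 or more and all found in both lists. Replicate 2 had 46, of which 22 scored 10 or more, with 18 of those 22 found in replicate 1, and 24 scored below 10, with 4 of those 24 found again. The shares over all strong peaks were 79.2% in replicate 1 and 71.8% in replicate 2, and 3.94% over all weak peaks of replicate 2. With so few wide peaks, the counts are not read as a trait of width. The widest was 1117 bp in replicate 1 and 1806 bp in replicate 2. Across peaks, Spearman's rho between width and score was 0.22 in replicate 1 and 0.36 in replicate 2, given as a description.

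Within each score band, shared peaks had the higher median score with all peaks counted. Above the threshold the medians were 17.9 for shared and 13.3 for single-list peaks in replicate 1, and 16.5 and 11.7 in replicate 2, a mean difference of 4.73 ± 0.127 (SD, n = 2 lists). The interquartile ranges overlapped, with 13.3 to 27.8 against 11.6 to 16.5 in replicate 1 and 13.0 to 25.1 against 11.02 to 13.29 in replicate 2. The difference was 1.07 without the 1% highest-scored peaks, made up of 0.17 in replicate 1 and 1.96 in replicate 2, so that in replicate 1 little of it was left. It was 1.82 without the 147 regions that hold a peak in both BRWD1, both H3K9Ac and the second H3S10pK14Ac list. Below the threshold the medians were 6.91 against 5.47 and 7.00 against 5.70, a mean difference of 1.37 ± 0.0990.

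Shared peaks overlapped H3K9Ac peaks more often than single-list peaks of the same score band. The histone lists were not used to define the classes, but shared peaks also scored higher within each band, and the classes were not matched for score. In replicate 1, 297 of the 355 strong shared peaks overlapped H3K9Ac replicate 1 (83.7%, 79.5 to 87.1) against 52 of the 93 strong single-list peaks (55.9%, 45.8 to 65.6). In replicate 2 the same list met 75.6% (70.3 to 80.3) against 31.5% (23.6 to 40.7). Weak shared peaks had 34.0% and 49.1%, and weak single-list peaks 4.07% and 4.72%, in replicates 1 and 2. At neither mark in any replicate lay 8.45% and 7.07% of strong shared peaks, 41.9% and 32.4% of strong single-list peaks, 41.9% and 37.4% of weak shared peaks, and 94.9% and 90.3% of weak single-list peaks. The order held with only the midpoint of the BRWD1 peak counted, where the H3K9Ac replicate 1 shares of strong shared and strong single-list peaks were 82.5% and 55.9% in replicate 1 and 74.6% and 29.7% in replicate 2. Many strong shared peaks lay in regions with a peak in both BRWD1, both H3K9Ac and the second H3S10pK14Ac list. Without those regions, 220 of the 355 strong shared peaks of replicate 1 and 146 of the 283 of replicate 2 were left. Of the strong single-list peaks, 93 of 93 and 109 of 111 were left. The part of these regions in the H3K9Ac shares was not tested.

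Strong peaks found in a single BRWD1 list overlapped the H3K9Ac list of the same replicate number more often than that of the other number. Of the 93 such peaks of replicate 1, 52 overlapped H3K9Ac replicate 1 and 6 overlapped H3K9Ac replicate 2 (6.45%, 2.99 to 13.4), although the latter list was the longer, with 16453 against 10117 peaks over 4307 and 4690 kb. Of the 111 such peaks of replicate 2, 58 overlapped H3K9Ac replicate 2 (52.3%, 43.0 to 61.3) and 35 overlapped H3K9Ac replicate 1. For H3S10pK14Ac replicate 2 the counts were 5 of 93 (5.38%, 2.32 to 12.0) and 42 of 111 (37.8%, 29.4 to 47.1). The H3S10pK14Ac replicate 1 list, with 102 peaks, was too short to compare. Peaks found in both BRWD1 lists met H3K9Ac replicate 1 more often than H3K9Ac replicate 2, whatever the BRWD1 replicate. At H3K9Ac replicates 1 and 2, the strong shared peaks had 83.7% and 56.3% for BRWD1 replicate 1, and 75.6% and 71.4% for BRWD1 replicate 2. Each H3K9Ac list thus met a larger share of them in the BRWD1 list of its own number. H3S10pK14Ac replicate 2 met 51.5% of them in BRWD1 replicate 1 and 68.9% in BRWD1 replicate 2. The weak shared peaks had 34.0% and 25.8%, and 49.1% and 18.6%. There each H3K9Ac list met the larger share in the BRWD1 list of the other number. H3S10pK14Ac replicate 2 met 25.8% and 15.4% of the weak shared peaks. Whether libraries of the same number shared cells, a day or an input is not given in the labels, and its part in these overlaps was not tested.

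**Figure D3:**
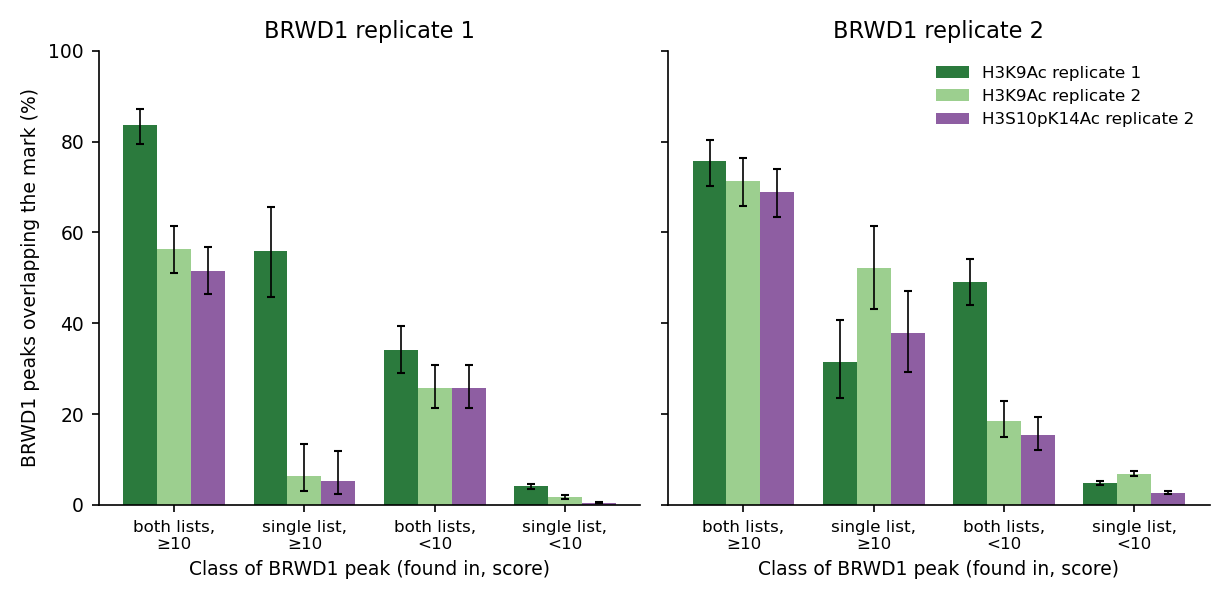
Share of BRWD1 peaks overlapping each histone list (y axis, percent) in the 4 classes of peaks (x axis: found in both lists or a single list, score of 10 or more or below 10), for BRWD1 replicate 1 (left) and 2 (right); error bars are 95% Wilson intervals. Among strong single-list peaks the taller H3K9Ac bar is that of the same replicate number, 55.9% in replicate 1 and 52.3% in replicate 2.

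BRWD1 peaks were mostly isolated. The median gap to the nearest other peak of the same list was 136 kb in replicate 1 and 78.9 kb in replicate 2, the longer list. Among strong peaks it was 131 kb for shared and 139 kb for single-list peaks in replicate 1, and 66.3 and 64.8 kb in replicate 2. Among weak peaks it was 127 and 137 kb in replicate 1, and 88.1 and 79.4 kb in replicate 2. The ratio of shared to single medians, 0.981 ± 0.0595 for strong and 1.02 ± 0.126 for weak peaks (SD, n = 2 lists), lay on opposite sides of 1 in the 2 lists, so typical spacing did not differ beyond the spread between lists.

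Close neighbours were more frequent among shared peaks, but the excess among strong peaks was much smaller without a single place on chromosome 9. A neighbour within 10 kb in the same list was present for 58 of 355 strong shared peaks of replicate 1 (16.3%, 12.9 to 20.5) and 8 of 93 strong single-list peaks (8.60%, 4.42 to 16.1). In replicate 2 the counts were 55 of 283 (19.4%, 15.2 to 24.4) and 14 of 111 (12.6%, 7.66 to 20.1). Weak shared and single-list peaks had 16.4% and 5.40% in replicate 1, and 13.0% and 9.37% in replicate 2. The mean differences were 7.28 ± 0.646 percentage points for strong and 7.32 ± 5.22 for weak peaks (SD, n = 2 lists). Without the 1 Mb window at the start of chromosome 9 the shares for strong peaks were 9.45% and 7.61% in replicate 1, and 13.3% and 12.7% in replicate 2, a mean difference of 1.21 points. Without the 5 densest windows the mean difference was -0.35 points, with -1.09 in replicate 1 and 0.39 in replicate 2. These windows were picked for their counts of strong peaks in the same lists. In the densest, 27 of 28 strong peaks of replicate 1 and 20 of 21 of replicate 2 were shared. Leaving them out therefore lowers the neighbour share of strong shared peaks, and the smaller differences do not show that there is no excess. For weak peaks the mean difference was 4.46 points without the densest window. It was 0.425 points when peaks of a list at most 500 bp apart were joined, which merged away 73 peaks of replicate 1 and 79 of replicate 2. Split by distance, the excess in replicate 1 and among weak peaks of replicate 2 lay within 1 kb. From 1 to 10 kb, shared and single-list peaks had 3.38% and 3.23% (strong) and 3.34% and 4.21% (weak) in replicate 1. In replicate 2 they had 8.83% and 4.50% (strong) and 7.16% and 7.76% (weak). Sharing and close spacing are also linked by construction at the 21 replicate 2 peaks that span several replicate 1 peaks.

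**Figure D4:**
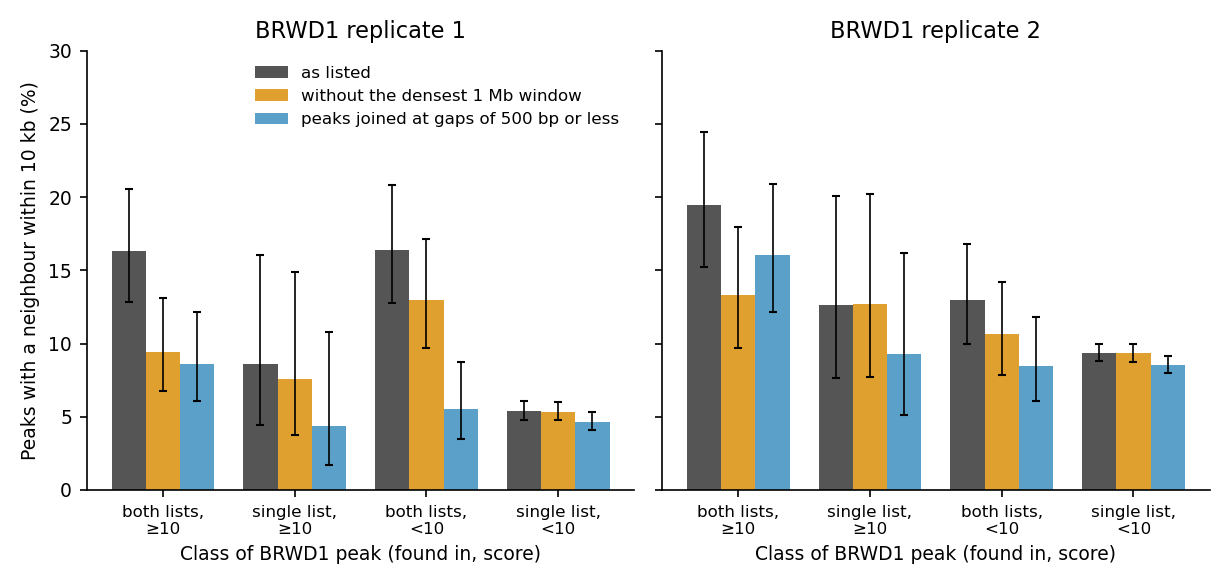
Share of BRWD1 peaks with another peak of the same list within 10 kb (y axis, percent) in the 4 classes of peaks (x axis), as listed, without the densest 1 Mb window, and after joining peaks at most 500 bp apart; error bars are 95% Wilson intervals, and the panels are replicates 1 and 2. The excess of strong shared over strong single-list peaks, 16.3% against 8.60% in replicate 1, is 9.45% against 7.61% without that window.

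Most chains of neighbouring peaks were pairs, and most held no shared peak. Joined at gaps of 10 kb or less, replicate 1 gave 165 chains that hold 392 peaks (6.74%) and replicate 2 gave 446 chains with 979 peaks (9.83%). Of these, 152 and 403 were pairs, 13 and 43 had 3 or more peaks, and 4 in each list had 5 or more. No shared peak was present in 117 of the 165 chains and 382 of the 446, and 14 and 5 chains were made of shared peaks alone. A peak of score 10 or more was present in 29 and 40 chains. Over the whole lists only 11.8% and 6.62% of peaks were shared, so these counts are not read as a trait of chains.

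The largest chain lay at the centromere-proximal end of assembled chromosome 9, 2999939 to 3038337 (38.4 kb). It held 44 peaks of replicate 1 and 33 of replicate 2, of which 40 and 30 were found in both lists. Their scores ran from 5.21 to 44.4 (median 12.1) in replicate 1 and from 5.56 to 46.5 (median 12.8) in replicate 2, and the gaps between neighbours had medians of 293 and 430.5 bp. The place was not particular to BRWD1: H3K9Ac had 8 and 23 peaks there, H3S10pK14Ac replicate 2 had 25 and H3S10pK14Ac replicate 1 had 0. As background, the start of assembled chromosome 9 is known in mm9 as repeated sequence with high signal in many libraries, and its part in the clustering, neighbour shares and density given here was not tested. Input DNA was not analysed here, so the level without antibody is unknown.

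The other large chains outside chromosome 18 were short, and the histone lists had peaks in each of them. On chromosome 12, 114662719 to 114667506 in the heavy chain region, 5 peaks of replicate 1 and 6 of replicate 2 lay within 4.79 kb, with highest scores of 11.1 and 23.3, and all 11 overlapped H3K9Ac. On chromosome 17, 39979889 to 39985240 held 4 and 6 peaks with highest scores of 93.9 and 94.1. On chromosome 2, 98502356 to 98507551 held 5 and 4 peaks, all 9 found in both lists and all of score 32.2 or more, and both H3K9Ac lists and H3S10pK14Ac replicate 2 each had 4 peaks there. As background, this place too is known in mm9 for high signal in many libraries whatever the antibody, and its part in the scores and the full sharing was not tested. On chromosome 15, 74915960 to 74917441 held 5 peaks of replicate 1 and 1 of replicate 2, with highest scores of 13.0 and 19.9. Of the 2 H3K9Ac lists, replicate 1 had no peak there and replicate 2 had 1.

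BRWD1 peaks had fewer close neighbours than H3K9Ac peaks. With the 5813 top-scored peaks of each list, 6.74% and 6.28% of BRWD1 peaks had a neighbour within 10 kb (6.51% ± 0.328, SD, n = 2 lists), against 42.9% and 37.1% of H3K9Ac peaks (40.0% ± 4.06). The difference was -33.5 percentage points, and the lists did not overlap, but an exact two-sided permutation test over 2 against 2 lists gave p = 0.333, the smallest it can give. The H3S10pK14Ac replicate 2 list, with 7.79%, was close to BRWD1, so sparse neighbours were not particular to BRWD1. Most of the BRWD1 peaks compared scored below 10. Strong shared BRWD1 peaks had a neighbour in 16.3% and 19.4% of cases over the whole lists. With peaks joined at gaps of 500 bp or less, the mean shares were 5.30% for BRWD1 and 23.8% for H3K9Ac, so part of the difference lay in closely spaced H3K9Ac peaks.

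Per megabase, strong BRWD1 peaks were clustered, and the excess over independent placement was much smaller without the same place on chromosome 9. The variance of the number of strong peaks per 1 Mb window was 2.78 times the mean in replicate 1 and 2.14 times in replicate 2 (2.46 ± 0.453, SD, n = 2 lists), where independent placement gives a ratio of 1. The window from 3 to 4 Mb of chromosome 9 held 28 of the 448 strong peaks of replicate 1 (6.25%) and 21 of the 394 of replicate 2 (5.33%). Without it the ratio was 1.12 and 1.10, and without the 5 densest windows 1.02 and 1.01. These windows were picked for their counts in the same lists, and leaving out the densest windows lowers the ratio. The lower ratios therefore do not show independent placement. With the chromosome 9 window, shared strong peaks had ratios of 3.09 and 2.41, and strong single-list peaks 1.03 and 1.05. Strong single-list peaks were few, with means of 0.0359 and 0.0429 per window, where a ratio near 1 says little about placement. The next densest windows held far fewer: chromosome 17, 39 to 40 Mb, had 4 and 5 strong peaks, chromosome 2, 98 to 99 Mb, had 5 and 4, chromosome 4, 108 to 109 Mb, had 3 and 3, and chromosome 13, 21 to 22 Mb, had 4 and 1. Most windows were empty of strong peaks, 2213 and 2249 of 2588, and 191 windows had strong peaks of both lists.

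Weak BRWD1 peaks were spread over nearly the whole genome. Only 16.5% and 5.99% of the windows had none in replicates 1 and 2. The variance-to-mean ratio was 1.31 and 1.52 (1.42 ± 0.152), and hardly moved without the densest window, at 1.25 and 1.52. H3K9Ac peaks below 10 had ratios of 4.68 and 4.59, and strong H3K9Ac peaks 2.91 and 2.73. Across the 2588 windows the 2 BRWD1 lists were weakly alike for weak peaks (Pearson's r = 0.21) and more alike for strong peaks (r = 0.80, and 0.49 without the 5 densest windows). These values are descriptions, since windows share mappability and libraries.

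Strong peaks were densest on chromosome 9 in both lists, with 0.438 and 0.339 peaks per Mb (53 and 41 peaks), against medians of 0.158 and 0.147 over the autosomes. Outside the densest window chromosome 9 had 0.208 and 0.167 per Mb, within the range of the other autosomes. Chromosome 13 followed in both lists, with 0.273 and 0.205. Strong peaks were sparsest on chromosome 19 in replicate 1 (0.103, 6 peaks) and on chromosome X in replicate 2 (0.0494, 8 peaks). The share of strong peaks found in both lists ran from 50 to 94.7% over the autosomes in replicate 1 and from 50 to 87.8% in replicate 2, and chromosome 19 was lowest with 3 of 6 in each.

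Chromosome X stood below every autosome for weak peaks in both lists. It had 1.27 weak peaks per Mb in replicate 1 and 1.69 in replicate 2, where the autosomes ranged from 1.50 to 2.52 and from 3.32 to 4.37. Relative to the autosomal median these are ratios of 0.591 and 0.433. Weak peaks of H3K9Ac had ratios of 0.286 and 0.254 and those of H3S10pK14Ac replicate 2 had 0.386, so the low density was not particular to BRWD1. Without chromosome X, the densest autosome had 1.50 times the weak peaks of the sparsest (1.68 and 1.32 in the lists), against 2.29 ± 0.423 with it. Calls outside the lists were not available and were estimated from the numbers in the peak names. That estimate holds only if the numbers run on chromosome by chromosome. It put the longer call lists at 0.725 and 0.687 times the autosomal median on X, less far below it than the listed peaks. The sex of the mice, and with it the number of X chromosomes per cell, is not given in the labels, and its part in the density was not tested.

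**Figure D5:**
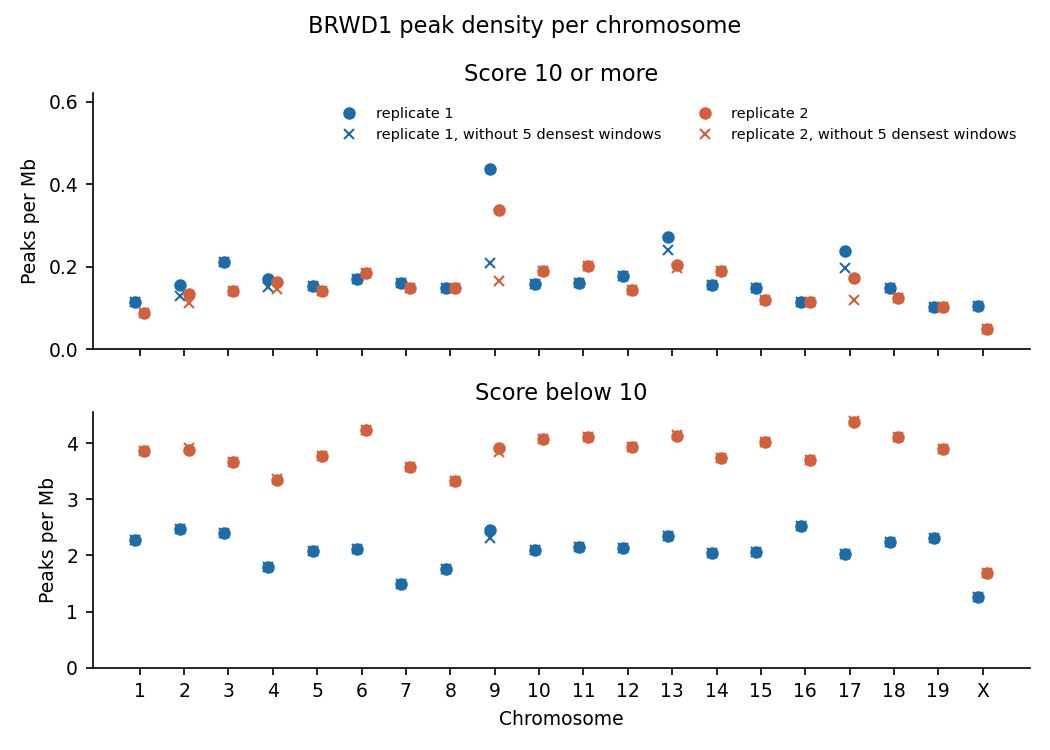
BRWD1 peaks per Mb (y axis) on each chromosome (x axis) for scores of 10 or more (top) and below 10 (bottom); dots are all peaks and crosses leave out the 5 densest 1 Mb windows, for replicates 1 and 2. Chromosome 9 stands out among strong peaks with 0.438 and 0.339 per Mb and not without those windows, and chromosome X is lowest among weak peaks with 1.27 and 1.69 per Mb.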

How the data were processed

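The authors deposited a peak list per replicate library, with positions, a name and a score. That deposited score was read as −log10 of a p or q value (the sources do not say which), since the lists are named for it and no value lies below 5. The submitters' processing notes name MACS2, Picard, BWA 0.7.5, Trimmomatic 0.32 and the build mm9, without roles. Settings and the input library are not stated. The first base of a chromosome is counted as 1. Replicate 1 had 3 and replicate 2 had 18 further peaks on chromosomes M and Y, which were left out.

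Overlaps, spacing and window counts were computed with Python 3.11.15, numpy 2.4.6, pandas 2.3.3 and scipy 1.17.1, and tested on simulated lists, where overlaps were checked with bedtools 2.31.1. A window counts peak midpoints. Density uses the span from the first to the last peak of any list. Ties among equal scores at a list limit were drawn with a fixed seed. Read depth is unknown, so precision rests on counts of peaks (95% Wilson intervals) and on 2 lists (SD). For shared peaks the 2 lists are not independent, since they count the same overlaps. Regions were named by rule: best mean ranks, most unequal pairs, strongest single-list peaks, largest chains, densest windows, densest and sparsest chromosomes, and peaks next to the score threshold. No region on chromosome 18 is named. That chromosome was left out before ranks, unequal pairs, single-list peaks, chains and threshold peaks were picked. The peaks, tests and lists were chosen with earlier results of these data known. Histone overlaps by class, wide peaks, settings without dense windows and the paired exact tests were added after values were seen. Input and ATAC-seq samples were not analysed here.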

Additional observations from a re-analysis of the deposited data

How the results depend on the processing

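Among BRWD1 values recomputed from both replicates, 102 moved by less than 1 SD between lists, 34 moved by more and 14 changed side. An overlap of 50% of the shorter peak changed none of its 10 values beyond 1 SD. With the replicate block (added after seeing the data), the paired difference from H3K9Ac was -33.5 points, with p = 0.5 by an exact permutation test, the smallest that 2 pairs can give. At a threshold of 20, with 8 and 4 single-list peaks, the share in both lists was 95.7% above and 7.50% below, the width ratio 0.829, the score differences 7.66 and 2.81, the neighbour difference 3.29 points, the spacing ratio 2.06, the window ratio 1.64 and the chromosome ratio 17.3. There the lists lay on opposite sides of 1, with width ratios of 1.12 and 0.538 and spacing ratios of 3.49 and 0.637 in replicates 1 and 2. For strong peaks without the 1% highest scores, the share was 62.4%, the width ratio 0.975, the score difference 1.07, the neighbour difference 3.81 and the spacing ratio 1.03. Without regions in all 5 larger lists these were 63.8%, 0.998, 1.82, 4.09 and 1.01, with a window ratio of 1.62. Without the densest window (chosen after seeing the data), strong peaks had a score difference of 4.60, a neighbour difference of 1.21, a spacing ratio of 1.08, a window ratio of 1.11 and a chromosome ratio of 3.39. Without the 5 densest windows these were 4.22, -0.35 (-1.09 and 0.39 in replicates 1 and 2), 1.08, 1.01 and 3.21. Joining at 500 bp gave strong peaks a neighbour difference of 5.52, a spacing ratio of 1.01 and a window ratio of 1.44, and weak peaks a neighbour difference of 0.425. With peaks within 1 kb as shared, strong peaks had a score difference of 4.57 and a neighbour difference of 9.87, and weak peaks a spacing ratio of 0.945. With 200 bp around midpoints, strong peaks had 4.42, 4.52 and a spacing ratio of 1.03. Distances of 5 and 25 kb gave neighbour differences of 5.97 and 5.75. Equal list lengths gave a score difference of 4.92 for strong and a spacing ratio of 0.955 for weak peaks. Chromosomes 1 to 19 alone gave weak peaks a spacing ratio of 0.982 and a chromosome ratio of 1.50. Windows of 2 and 0.5 Mb gave weak peaks window ratios of 1.70 and 1.25. Single replicates gave width ratios of 0.972 to 1.28 for weak peaks and spacing ratios of 0.939 to 1.02 for strong and 0.931 to 1.11 for weak peaks. The difference from H3K9Ac was -36.4 points with all peaks and -18.5 with peaks joined, the ends of its range. The cause of these shifts was not tested. Chromosome lengths of mm9 were not used, so that alternative was not run. No read depth is known, so a weak single-list peak cannot be told apart from one missed in the other list.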
